A study of Mus musculus with 10 samples.

Results

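The genes described here are 43 transcription factors that mark classes of spinal neurons, taken by symbol from the 24411 genes listed in the table, and all 43 were found. They were read in RNA of the lumbar spinal cord from a mouse model of painful neuropathy. One group of mice had been treated with paclitaxel, a microtubule-stabilising cancer drug that damages sensory nerves, and the other with its vehicle, with 5 samples in each group. The sources used here give neither dose, schedule, sex, age nor strain, nor whether each sample was a separate animal. The p-values therefore set the group difference only against the spread between these samples, which may be technical. The study's title is concerned with a neuropeptide receptor, Calcrl, and with MLL2, a histone methyltransferase. The comparison of the 2 groups asks here whether the factors that define neuron classes differ in mRNA.

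Spinal neurons take their identity from transcription factors switched on in the embryo, when progenitors along the dorsoventral axis give rise to distinct classes. Dorsal classes, which process touch, itch and pain, are glutamatergic where Tlx3 and Lmx1b act and inhibitory where Ptf1a and Pax2 act. Ventral classes, which drive movement, are marked by factors such as En1, Gata2 or Mnx1. Many of these genes are switched off again as the neurons mature, while others stay on and keep up the transmitter and peptide genes of the class. A further set marks the time at which a neuron was born rather than its place.

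The factors were sorted by these roles into 5 dorsal excitatory factors, 11 dorsal inhibitory factors, 6 dorsal factors found in neurons of both transmitter types, 14 ventral factors and 7 factors of birth time. The value used is CPM, the usual depth-scaled count of a gene, which makes libraries of unequal total comparable. Library totals ran from 3676259 to 5432072 counts with paclitaxel and from 4585899 to 7791594 with vehicle. The sample held neurons as labelled, since all 8 pan-neuronal markers were tested and Rbfox3, a nuclear protein of mature neurons, was at 179 ± 10.3 CPM in the paclitaxel group and at 184 ± 11.3 CPM in the vehicle group (SD, n = 5 each). Of 9 sensory ganglion markers 3 were tested. These were Prph (87.2 CPM with paclitaxel, 98.4 CPM with vehicle), Pou4f1 (9.94 and 8.62 CPM) and P2rx3 (3.82 and 3.44 CPM). The others were below the filter, with 1 count of Scn10a over all libraries and Mrgprd at 0. Pou4f1 is also listed here as a transcription factor of spinal neurons. The part of sensory ganglion tissue in the samples was not tested. Paclitaxel replicate 3 and vehicle replicate 4 stood apart in markers of other cells. Paclitaxel replicate 3 had the lowest mean log2 level of endothelial (-0.44 against the vehicle mean), oligodendrocyte (-0.29) and meningeal (-0.40) markers, and vehicle replicate 4 had the highest of meningeal markers (0.53).

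Of the 43 factors, 32 had enough counts to be tested, 10 were detected below that filter and 1, Ptf1a, had no count in any library. Ptf1a, the switch to the inhibitory fate in dorsal progenitors, lies on chromosome 2 from 19445663 to 19447501 (GRCm38). At a limit of 3 counts over the 51814921 counts of all 10 libraries, its level was under 0.0579 CPM, counting error only. The 10 other genes below the filter had at most 94 counts in all and at most 23 in a library. These were Lhx2 and Lhx9, which mark the most dorsal excitatory neurons, Dmrt3 and Wt1, which mark inhibitory commissural neurons of the locomotor network, Evx1 and Evx2 of the V0 commissural class, Gata3 of the V2b class, Sim1 of the V3 class, and Onecut1 and Onecut3 of early-born neurons. Their counts per library ran from 0 to 10 for Lhx2, 2 to 15 for Lhx9, 5 to 23 for Dmrt3, 0 to 5 for Wt1, 5 to 9 for Evx1, 0 to 5 for Evx2, 1 to 7 for Gata3, 0 to 9 for Sim1, 0 to 3 for Onecut1 and 2 to 12 for Onecut3. Dmrt3 had the most counts of them, at 1.99 ± 1.30 CPM (paclitaxel) and 1.54 ± 0.377 CPM (vehicle), and paclitaxel replicate 2 alone held its 23 counts. These 10 genes had no edgeR test. Two-sided exact permutation tests of each gene alone gave unadjusted p-values from 0.119 (Onecut1) to 0.944 (Evx1), so no difference was detectable at this depth in any of them.

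Levels of different genes can be compared only per transcript length, so CPM was divided by the mean length in kilobases of each gene's listed RefSeq transcripts. On this scale the vehicle libraries were led by Zic1 (13.9 ± 2.01 CPM per kilobase), a zinc finger factor of the dorsal cord, followed by the nuclear receptor Rora (11.8 ± 0.861), the late-birth factor Nfib (11.2 ± 0.199), the chromatin organiser Satb1 (10.1 ± 0.589) and Nkx2-2 (8.84 ± 1.26; SD, n = 5 each). Several of these leaders are not restricted to neurons, since Nkx2-2 also marks the oligodendrocyte lineage and Nfib and Rora are expressed in astrocytes.

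Below Nkx2-2 in this order came the inhibitory selector Pax2, at 5.24 ± 0.379 CPM per kilobase. It was followed by Bhlhe22 (4.24 ± 0.351), the ventral factor Foxp1 (4.21 ± 0.637), Pax8 (4.20 ± 0.795), Lhx5 (4.19 ± 0.445) and Maf (4.18 ± 0.294; SD, n = 5 each). Of these, Bhlhe22, Pax8 and Lhx5 were sorted here into the inhibitory class. The excitatory selector Tlx3 reached 3.44 ± 1.07 CPM per kilobase, while its partners Prrxl1 (1.73 ± 0.174) and Lmx1b (1.04 ± 0.176) were lower. Motor neuron factors lay further down, with Isl2 at 1.66 ± 0.235, Mnx1 at 0.995 ± 0.213 and Isl1 at 0.928 ± 0.285 CPM per kilobase. Neighbours in this order mostly did not differ beyond their spread, because the ranges of the 5 vehicle libraries overlapped in 38 of 42 neighbouring pairs. The pairs that did not overlap were Nfib over Satb1, Nkx2-2 over Pax2, Pax2 over Bhlhe22 and Zfhx4 over Zfhx3.

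**Figure D1:**
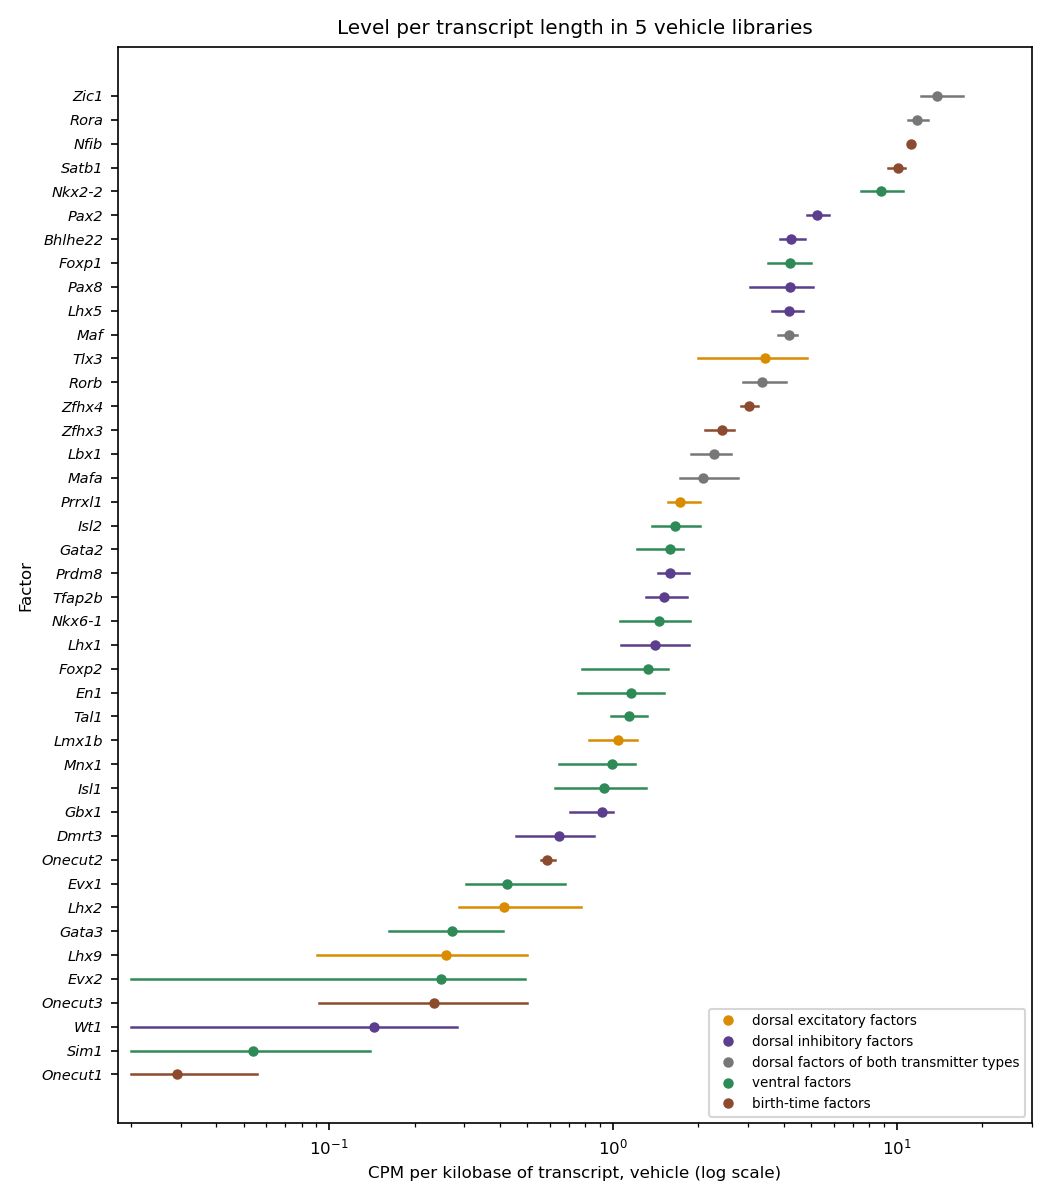
Level of 42 factors in the 5 vehicle libraries, as CPM per kilobase of transcript on a log axis, with the mean as a point and the lowest to highest library as a line, coloured by class. Lines that reach the left edge (Evx2, Wt1, Sim1 and Onecut1) include a library at 0, Ptf1a had no count and is not drawn, and Zic1 leads at 13.9 CPM per kilobase.

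Between paclitaxel and vehicle no factor passed the test. Over all 13287 genes tested, edgeR's quasi-likelihood test with Benjamini-Hochberg adjustment called 0 genes (0%) at an adjusted p of 0.05, and the lowest adjusted p was 0.792. At an unadjusted p under 0.05 there were 4 of the 32 tested factors (12.5%), where 6.07% of all tested genes reached it. DESeq2 and edgeR's likelihood ratio test called 1 gene each (Klf4, named after its value was seen) and limma-voom 0, and 0 factors were called by any of them. The 4 factors were Gata2, lower in value (1 of 32, where 3.12% of genes were lower at that p), and Rora, Nfib and Zfhx4, higher in value (3 of 32, where 2.94% were higher). When GC content and transcript length were corrected for (called the composition correction here), 2 of the 4 were left at that p, Gata2 and Rora, with 4.54% of all genes.

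Of the tested factors 16 were higher and 16 lower with paclitaxel, and their median log2 fold change was 0.00 to 2 decimals, as over all tested genes, of which 50.9% were lower. Their median absolute log2 fold change was 0.13, against 0.08 over all tested genes. Much of the spread was of the size that counting gives. Between vehicle libraries the median coefficient of variation of the 32 factors was 13.8%, where counting alone gives 16.0%, and with paclitaxel it was 17.5%, where counting gives 16.5%.

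**Figure D2:**
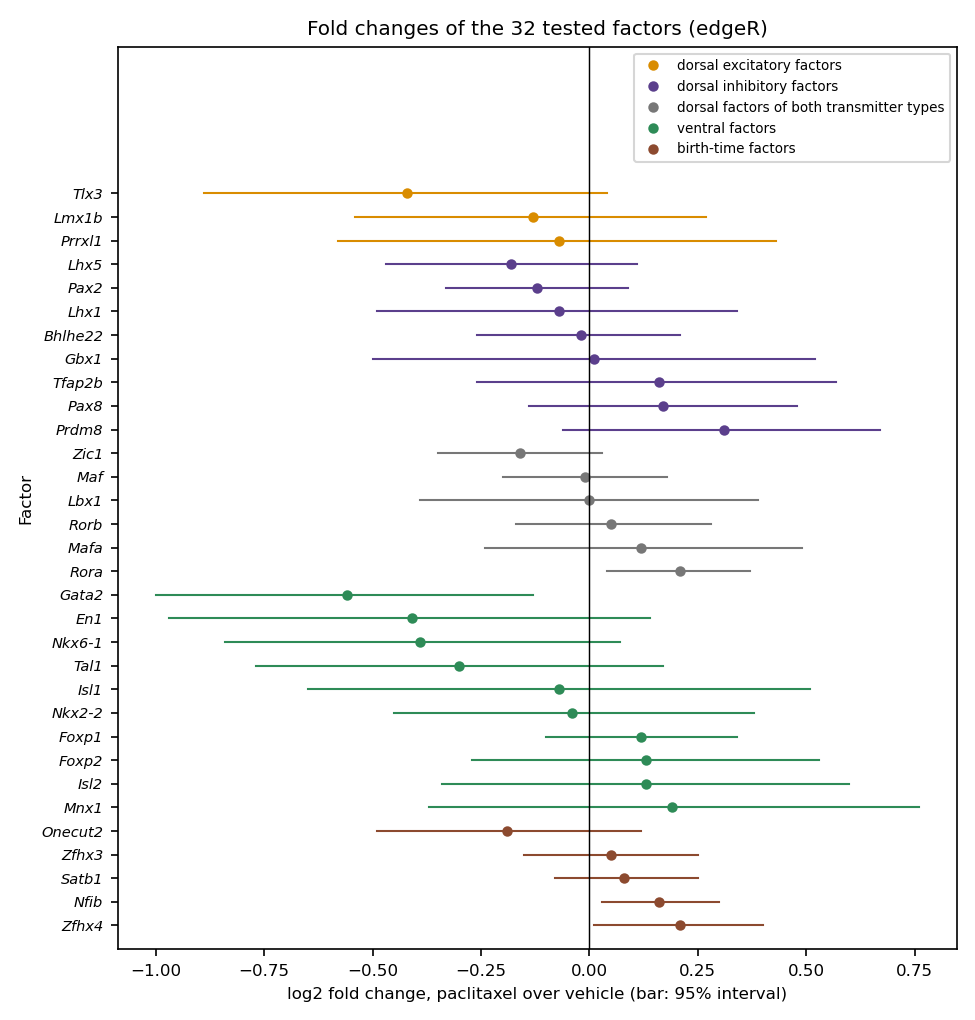
Log2 fold change of the 32 tested factors, paclitaxel over vehicle (n = 5 libraries each), from edgeR with 95% intervals, ordered within classes by size. The intervals of Gata2, Rora, Nfib and Zfhx4 leave out 0 before adjustment, and none passed an adjusted p of 0.05.

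The dorsal excitatory factors that could be tested were all lower in value with paclitaxel. Tlx3, the homeobox gene that selects the glutamatergic over the GABAergic fate in the dorsal horn (chromosome 11 from 33200752 to 33203588, GRCm38), was at 3.52, 4.07, 4.88, 3.27 and 4.04 CPM in paclitaxel replicates 1 to 5. In vehicle replicates 1 to 5 it was at 3.07, 4.89, 6.16, 4.77 and 7.43 CPM. The groups overlapped: the lowest of all libraries was vehicle replicate 1 and the highest vehicle replicate 5. The paclitaxel mean was 3.96 ± 0.620 CPM and the vehicle mean 5.27 ± 1.63 CPM (SD, n = 5 each), a log2 fold change of -0.42 (SE 0.22; edgeR adjusted p = 0.800). Without vehicle replicate 5 the log2 fold change was -0.23, and with the composition correction it was -0.29.

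Lmx1b, the LIM homeobox factor that keeps up the excitatory programme with Tlx3, was at 4.45, 3.51, 5.31, 5.46 and 4.22 CPM in paclitaxel replicates 1 to 5 and at 5.78, 4.37, 3.96, 5.86 and 4.87 CPM in vehicle replicates 1 to 5. Prrxl1 (also called Drg11), needed for the wiring of pain afferents to the dorsal horn, was at 1.64, 3.14, 2.12, 3.00 and 3.12 CPM with paclitaxel and at 2.53, 2.79, 2.64, 3.26 and 2.69 CPM with vehicle, in the same order. Both genes overlapped widely between groups, with log2 fold changes of -0.13 (95% interval -0.54 to 0.27) and -0.07 (-0.58 to 0.43), and without paclitaxel replicate 2 that of Lmx1b was -0.04. The median of the 3 tested factors was -0.13, and with the untested Lhx2 and Lhx9 included by dropping the filter it was -0.29. Of the same class, Lhx2 was at 0.829 ± 0.581 CPM with paclitaxel and at 0.936 ± 0.464 CPM with vehicle (SD, n = 5 each). Its groups overlapped.

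Dorsal inhibitory factors lay on both sides of the vehicle level. Of 8 tested, 4 were higher and 4 lower, with a median log2 fold change of -0.01 and none at an unadjusted p under 0.05. Pax2, which keeps up the GABAergic programme, was at 17.6, 19.8, 21.7, 25.4 and 21.5 CPM in paclitaxel replicates 1 to 5 and at 22.6, 21.7, 23.5, 21.1 and 25.2 CPM in vehicle replicates 1 to 5. The highest of these libraries was a paclitaxel one, replicate 4, and so was the lowest, replicate 1. The means of Pax2 were 21.2 ± 2.87 and 22.8 ± 1.65 CPM (SD, n = 5 each), a fold of 0.920 with a 95% interval from 0.794 to 1.07. Without paclitaxel replicate 1 its log2 fold change of -0.12 was -0.06.

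Lhx5, which acts with Lhx1 to hold Pax2 on in inhibitory neurons, was at 7.73, 11.3, 11.3, 10.1 and 8.99 CPM with paclitaxel and at 9.76, 11.9, 12.5, 11.9 and 10.3 CPM with vehicle, replicates 1 to 5. Its log2 fold change was -0.18 (SE 0.14) and ran to -0.10 without paclitaxel replicate 1. Lhx1 was at 5.14 ± 0.901 and 5.43 ± 1.18 CPM. The paired-box gene Pax8, a close relative of Pax2, was at 12.1 ± 2.00 and 10.8 ± 2.04 CPM, higher in value where Pax2 was lower (SD, n = 5 each), and both differences were within the spread of their libraries.

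Prdm8, a zinc finger repressor that acts as the partner of Bhlhe22, had the lowest p of the inhibitory class. It was at 7.50, 8.69, 9.98, 12.8 and 6.06 CPM in paclitaxel replicates 1 to 5 and at 7.23, 6.81, 7.04, 8.46 and 6.54 CPM in vehicle replicates 1 to 5. Paclitaxel replicate 4 was the highest library and paclitaxel replicate 5 the lowest. The log2 fold change was 0.31 (SE 0.18; edgeR adjusted p = 0.806), and 0.17 without paclitaxel replicate 4. Bhlhe22 itself, a basic helix-loop-helix factor needed for the inhibitory neurons that restrain itch, was at 13.6, 14.4, 14.4, 12.6 and 14.7 CPM in paclitaxel replicates 1 to 5 and at 13.2, 15.9, 13.0, 14.5 and 14.4 CPM in vehicle replicates 1 to 5. The groups of Bhlhe22 overlapped widely, with means of 13.9 ± 0.876 and 14.2 ± 1.17 CPM (SD, n = 5 each). Its 95% interval on the log2 scale was -0.26 to 0.21. Tfap2b, an AP-2 family factor, had a log2 fold change of 0.16, and Gbx1, a homeobox gene of late-born inhibitory neurons, of 0.01.

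The class of dorsal factors found in neurons of both transmitter types held the member that was higher at the lowest p. Rora, a retinoic acid receptor-related orphan receptor that marks interneurons of the deep dorsal horn (chromosome 9 from 68653404 to 69388246, GRCm38), was at 87.0, 81.9, 112, 93.9 and 83.9 CPM in paclitaxel replicates 1 to 5. In vehicle replicates 1 to 5 it was at 87.1, 77.9, 74.4, 83.5 and 74.0 CPM. Each of the 5 paclitaxel libraries exceeded the mean of the vehicle group, and paclitaxel replicate 3 stood highest. The groups overlapped, since vehicle replicates 1 and 4 both lay above paclitaxel replicate 2. The log2 fold change was 0.21 (SE 0.08; edgeR unadjusted p = 0.0158, adjusted p = 0.792), and 0.13 without paclitaxel replicate 3 and 0.14 after the composition correction. Rorb, its relative in inhibitory gating neurons, was at 24.2 ± 3.15 and 23.4 ± 3.23 CPM (SD, n = 5 each).

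Zic1 was lower in value with paclitaxel. Its 5 paclitaxel libraries were close together at 34.5, 36.6, 34.4, 34.1 and 34.7 CPM, while vehicle replicates 1 to 5 were at 35.1, 38.4, 39.8, 48.4 and 34.2 CPM. Vehicle replicate 4 alone was far above the others, and the groups overlapped through vehicle replicates 1 and 5. The log2 fold change was -0.16 (SE 0.09; edgeR adjusted p = 0.804), and -0.07 without vehicle replicate 4. Zic1 is also expressed in the meninges, and in that library the summed level of 15 meningeal and fibroblast markers was 182 CPM, against 117 to 125 CPM in the other vehicle libraries and 126 to 138 CPM with paclitaxel. Pdgfra, also listed here as an oligodendrocyte lineage marker, made up 63.2 CPM of the 182 CPM. It was at 52.1 to 58.4 CPM in the other vehicle libraries and at 58.6 to 68.5 CPM with paclitaxel. Among those markers Dpep1 was at 0 in all libraries, and the part of the meninges in the Zic1 value was not tested. Zic4 overlaps Zic1 on the other strand, and the strand setting was not stated. Zic1 had 0 values that were not whole, where division of reads between genes can give such values. Sharing of reads by the pair was not tested further. Rora, Satb1, Maf, Pax8, Lhx5, Prdm8, Evx1 and Gata3 are also overlapped on the other strand, by genes without listed values. Whether reads of those genes entered the values of these factors was not tested.

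Mafa, a leucine zipper factor of low-threshold touch circuits, was at 6.33, 6.47, 6.16, 6.55 and 5.32 CPM with paclitaxel and at 4.70, 6.11, 4.84, 7.60 and 5.13 CPM with vehicle, replicates 1 to 5. Its relative Maf was at 26.4 ± 2.48 and 26.6 ± 1.87 CPM, and Lbx1, the homeobox gene that sets the dorsal classes apart, at 5.62 ± 1.28 and 5.63 ± 0.759 CPM (SD, n = 5 each). The log2 fold changes were 0.12, -0.01 and 0.00, that of Mafa being 0.24 without vehicle replicate 4, and the dorsal determinant Lbx1 had nearly the same mean in both groups, with a 95% interval from -0.39 to 0.39.

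Ventral factors were led by Gata2, which had the lowest edgeR p of the 32 tested factors and rank 196 among the 13287 tested. Gata2 is a zinc finger factor of V2b interneurons, inhibitory cells that shape flexor and extensor alternation, and acts there with Tal1 and Gata3 (chromosome 6 from 88193891 to 88207032, GRCm38). It was at 4.69, 4.25, 4.25, 1.91 and 3.49 CPM in paclitaxel replicates 1 to 5. In vehicle replicates 1 to 5 it was at 5.78, 5.76, 6.16, 6.29 and 4.36 CPM. All 5 paclitaxel libraries were below the vehicle mean, and the groups overlapped only in that paclitaxel replicate 1 exceeded vehicle replicate 5.

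Gata2 had a mean of 3.72 ± 1.10 CPM under paclitaxel and of 5.67 ± 0.770 CPM under vehicle (SD, n = 5 each), a fold of 0.677 with a 95% interval from 0.500 to 0.916. Taken alone, Gata2 had p = 0.0159 in a two-sided exact permutation test, where the smallest possible is 0.00794. Gata2 was singled out by its edgeR p in these same libraries, so this second p is not independent of the first. Over all genes Gata2 did not pass (log2 fold change -0.56, SE 0.21; edgeR unadjusted p = 0.0136, adjusted p = 0.792). The counts behind it were small, 7 to 23 per library with paclitaxel and 28 to 34 with vehicle. With each library left out in turn the log2 fold change ran from -0.66 to -0.43, the smallest without paclitaxel replicate 4, and it was -0.49 after the composition correction.

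The partners of Gata2 were also lower in value. Tal1 (chromosome 4 from 115056426 to 115071755, GRCm38), named here beside Gata2 after its values were seen, was at 5.39, 4.07, 3.61, 1.64 and 3.49 CPM in paclitaxel replicates 1 to 5 and at 4.88, 5.24, 4.40, 3.91 and 4.23 CPM in vehicle replicates 1 to 5. Its lowest library was paclitaxel replicate 4, as for Gata2, and its highest paclitaxel replicate 1, so the groups overlapped. The log2 fold change was -0.30 (SE 0.23), and -0.14 without paclitaxel replicate 4. Gata3 was at 0.627 ± 0.288 CPM with paclitaxel and at 0.866 ± 0.293 CPM with vehicle (SD, n = 5 each). Its groups overlapped, at 1 to 5 counts per library with paclitaxel and 3 to 7 with vehicle, and it had no edgeR test.

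Gata2 and Tal1 are also expressed in endothelial and blood cells, and in bulk tissue fewer cells of a type and less RNA per cell cannot be told apart. Of 7 endothelial markers 3 were higher and 4 lower in value, and their summed level ran from 169 to 259 CPM with paclitaxel and from 180 to 238 CPM with vehicle. In paclitaxel replicate 4 it was 204 CPM. Of 6 blood markers, summed from 65.4 to 281 CPM with paclitaxel and from 132 to 230 CPM with vehicle, 5 were tested, with 2 higher and 3 lower. In paclitaxel replicate 4, where Gata2 and Tal1 were lowest, the blood sum was 101 CPM, below every vehicle library, and in paclitaxel replicate 3 it was lower still at 65.4 CPM. The part of these cells in the Gata2 value was not tested.

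The 250 bases before the most upstream RefSeq start of Gata2 and Tal1 are given because these partners had their lowest level in the same library (GRCm38.p6, plus strand, chr6:88193641-88193890 and chr4:115056176-115056425). That library, paclitaxel replicate 4, had the fewest counts in total, with 7 of Gata2 and 6 of Tal1. Common regulation of the pair was not tested. Capitals mark the letters GATAA on either strand, the core bound by GATA factors, and CANNTG, the E-box core of factors such as Tal1.
Gata2: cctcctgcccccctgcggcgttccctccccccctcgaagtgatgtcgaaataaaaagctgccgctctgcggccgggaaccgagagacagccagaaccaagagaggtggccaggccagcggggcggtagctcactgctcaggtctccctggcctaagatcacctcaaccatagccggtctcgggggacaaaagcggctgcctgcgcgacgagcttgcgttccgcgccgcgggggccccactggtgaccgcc
Tal1: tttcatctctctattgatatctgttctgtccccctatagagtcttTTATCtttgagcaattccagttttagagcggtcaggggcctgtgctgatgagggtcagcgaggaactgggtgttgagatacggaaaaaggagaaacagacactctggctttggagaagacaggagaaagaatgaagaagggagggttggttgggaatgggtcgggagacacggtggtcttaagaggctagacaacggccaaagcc
The stretch of Tal1 held 1 GATAA, written as TTATC on the strand shown, and that of Gata2 held 0, while neither held CANNTG. Among 32851 RefSeq upstream stretches of the same length, 22.6% held GATAA and 66.2% held CANNTG. The stretch of Gata2 was richer in G and C (67.2%) than that of Tal1 (48.8%).

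Other ventral factors of interneurons and motor neurons overlapped between the groups. En1, the homeobox gene of V1 interneurons that set the speed of stepping, was at 3.28, 1.48, 2.33, 1.91 and 2.57 CPM with paclitaxel and at 3.98, 3.67, 1.98, 2.60 and 2.95 CPM with vehicle, replicates 1 to 5. Nkx6-1, a homeobox gene of motor neurons and neighbouring classes, was at 3.05, 3.51, 4.46, 3.82 and 2.57 CPM with paclitaxel and at 3.80, 3.32, 5.28, 5.86 and 4.61 CPM with vehicle. Both were lower in value, by log2 fold changes of -0.41 (SE 0.27; edgeR adjusted p = 0.813) and -0.39 (SE 0.22; 0.804), and their upper interval bounds were 0.14 and 0.07. Without paclitaxel replicate 2 the value of En1 was -0.27.

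Foxp1, which sets the identity of limb motor neurons and is also found in other cells, was at 26.5, 24.4, 28.0, 26.5 and 22.4 CPM with paclitaxel and at 19.5, 24.8, 20.0, 27.8 and 25.0 CPM with vehicle, replicates 1 to 5. Its log2 fold change was 0.12, and 0.06 without vehicle replicate 1. Its relative Foxp2, of V1 interneurons, was at 7.33 ± 1.78 and 6.68 ± 1.61 CPM. The motor neuron factors Isl1, Isl2 and Mnx1 had log2 fold changes of -0.07, 0.13 and 0.19, each smaller than its standard error (0.28, 0.23 and 0.27). Chat, the acetylcholine-synthesising enzyme of the same neurons, was at 34.4 ± 3.86 and 36.3 ± 3.82 CPM (SD, n = 5 each).

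Nkx2-2 marks V3 interneurons in the embryo and cells of the oligodendrocyte lineage in the adult. It was at 15.2, 16.6, 6.58, 17.5 and 12.5 CPM in paclitaxel replicates 1 to 5 and at 11.9, 16.6, 13.9, 15.4 and 12.3 CPM in vehicle replicates 1 to 5. Paclitaxel replicate 3 stood below every other library. In that library the 9 oligodendrocyte lineage markers, including Olig2 and Sox10, had a mean log2 level of -0.29 against the vehicle mean, where the other libraries lay between -0.06 and 0.12. The log2 fold change of Nkx2-2 was -0.04, and 0.14 without that library. Its antisense RNA Nkx2-2os is listed separately, and all 10 values of Nkx2-2 were not whole, which estimates give where reads can be divided between genes, so its level is uncertain. Of the 10 tested ventral factors 4 were higher and 6 lower, with a median of -0.05.

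**Figure D3:**
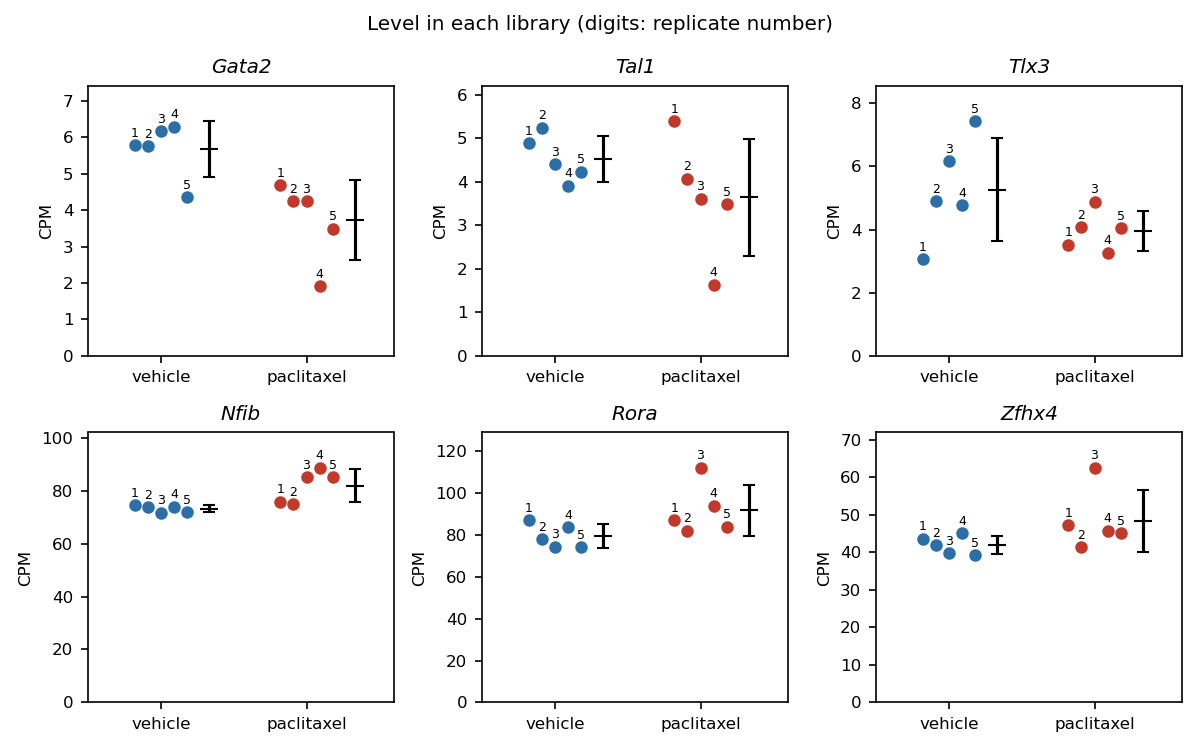
CPM of 6 factors in each library (5 vehicle, 5 paclitaxel), with replicate numbers as digits and the mean ± SD at the right of each group, on axes that start at 0. Gata2 and Tal1 are lowest in paclitaxel replicate 4, Rora and Zfhx4 are highest in paclitaxel replicate 3, and the groups of Nfib do not overlap.

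Factors of birth time were mostly higher in value with paclitaxel. Early-born spinal neurons express Onecut factors, later ones Zfhx3 and Zfhx4, and the last-born, local neurons Nfib. Nfib, a nuclear factor I protein (chromosome 4 from 82290173 to 82506751, GRCm38), was at 75.9, 74.9, 85.1, 88.7 and 85.0 CPM in paclitaxel replicates 1 to 5 and at 74.5, 73.7, 71.7, 74.0 and 71.8 CPM in vehicle replicates 1 to 5. The groups did not overlap, although paclitaxel replicates 1 and 2 lay just above the highest vehicle library. Nfib was the only 1 of the 32 tested factors without overlap, where 0.467% of all tested genes were higher without overlap, 0.625% lower and 1.09% either.

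The means of Nfib were 81.9 ± 6.14 and 73.1 ± 1.30 CPM (SD, n = 5 each), a fold of 1.12 with a 95% interval from 1.02 to 1.23. Any gene whose groups do not overlap gets the smallest p that the design allows (two-sided exact permutation test, p = 0.00794). For Nfib that p therefore adds nothing to the lack of overlap. Over all genes Nfib did not pass (edgeR log2 fold change 0.16, SE 0.07; unadjusted p = 0.0202, adjusted p = 0.792). With the composition correction the log2 fold change was 0.10, with an unadjusted p of 0.110. The spread of Nfib between vehicle libraries, 1.78%, was smaller than counting alone gives (4.93%).

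Zfhx4, a zinc finger homeobox factor (chromosome 3 from 5218218 to 5415861, GRCm38), was at 47.3, 41.4, 62.6, 45.8 and 45.1 CPM in paclitaxel replicates 1 to 5 and at 43.7, 41.9, 39.8, 45.1 and 39.3 CPM in vehicle replicates 1 to 5. Paclitaxel replicate 3 alone was far above the others, while paclitaxel replicate 2 lay below the vehicle mean. The log2 fold change was 0.21 (SE 0.09; edgeR adjusted p = 0.792), and 0.10 without paclitaxel replicate 3. Its relative Zfhx3 was at 41.1 ± 6.12 and 40.0 ± 3.76 CPM (SD, n = 5 each).

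Satb1, which organises chromatin in maturing interneurons, was at 53.0, 56.0, 69.2, 52.7 and 60.6 CPM with paclitaxel and at 52.8, 56.6, 50.8, 56.4 and 58.8 CPM with vehicle, replicates 1 to 5. Paclitaxel replicate 3 was again the highest, and without it the log2 fold change of 0.08 was 0.01. Onecut2 was the lower exception, at 7.27, 7.21, 7.64, 10.9 and 8.99 CPM with paclitaxel and at 10.1, 9.08, 9.02, 9.98 and 9.23 CPM with vehicle (log2 fold change -0.19, SE 0.15). The class median of 0.08, over 5 tested factors, was 0.01 without paclitaxel replicate 3.

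Markers of astrocytes, where Nfib and Rora are also expressed, were also mostly higher in value. Of 8 such markers 7 were higher in value, with a median log2 fold change of 0.07 and 1 at an unadjusted p under 0.05 (the glutamate transporter gene Slc1a2, 0.10). Their mean log2 level was 0.04 to 0.16 above the vehicle mean in the paclitaxel libraries and -0.03 to 0.02 in the vehicle libraries, and their summed level was 5095 to 5586 CPM against 4868 to 5283 CPM. The sign of the difference also varied with transcript length. Of the 10 tested factors with transcripts of at least 5 kilobases 8 were higher, with a median of 0.10, and of the 22 shorter ones 8 were, with a median of -0.07. Over all tested genes the same split gave 59.8% higher with a median of 0.02, and 46.5% with a median of -0.01. Every tested birth-time factor had transcripts of at least 5 kilobases, from 5.47 (Satb1) to 16.4 (Zfhx3). Every tested dorsal excitatory factor was shorter, from 1.53 (Tlx3) to 4.79 (Lmx1b). The part of astrocytes or of transcript length in the values of Nfib and Rora was not tested beyond the composition correction. The part of length in the class values was not tested beyond it either.

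Set side by side, the classes differed little. The median log2 fold change was -0.13 for dorsal excitatory, -0.01 for dorsal inhibitory, 0.03 for dorsal factors of both types, -0.05 for ventral and 0.08 for birth-time factors, each over its tested members only, and 0.00 over all tested genes. The mean log2 level of a class in a library, taken against the vehicle mean, was below 0 in all 5 paclitaxel libraries for dorsal excitatory (-0.42 to -0.09) and ventral factors (-0.31 to -0.03). The vehicle libraries ran from -0.18 to 0.16 and from -0.09 to 0.07, so both classes overlapped between groups. Dorsal inhibitory factors ran from -0.10 to 0.12 with paclitaxel and from -0.09 to 0.06 with vehicle. The lowest score of the excitatory class was in paclitaxel replicate 1, and of the ventral class in paclitaxel replicate 4, the library with the fewest counts. Classes also differed in transcript length, as given above. Differences between the classes were not tested, nor was the part of length in them.

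**Figure D4:**
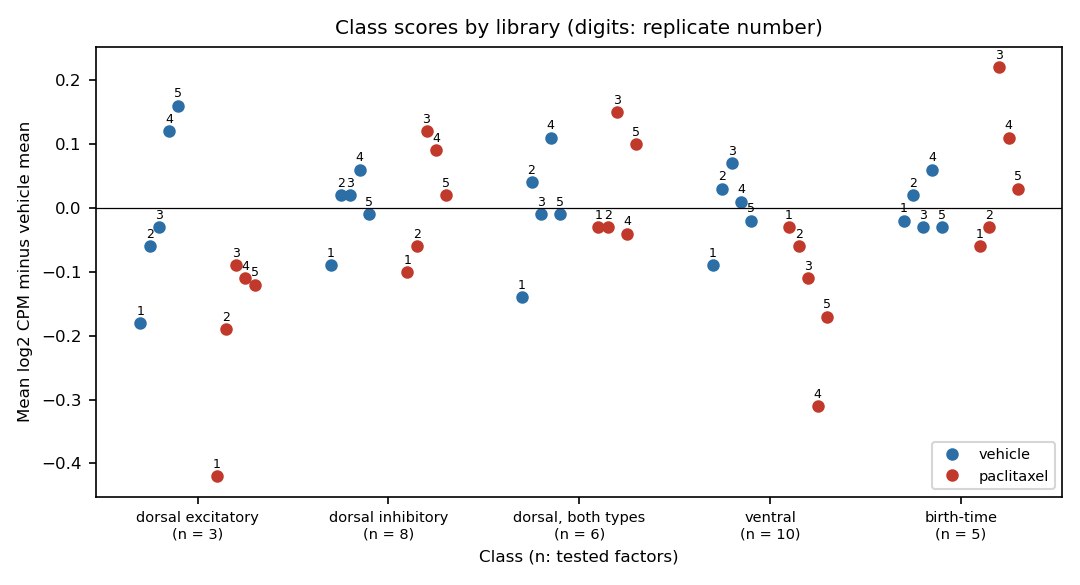
Mean log2 CPM of the tested factors of each class minus the vehicle mean, for every library (digits give the replicate number). Dorsal excitatory and ventral factors lie below 0 in all 5 paclitaxel libraries but overlap with vehicle, and the birth-time class is highest in paclitaxel replicate 3 at 0.22.

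No related gene passed the test either. Of 67 other transcription factors of spinal neurons, 43 were tested, 29 higher and 14 lower (32.6%, where 50.9% of all tested genes were lower), with a median of 0.05 and 0 called. At an unadjusted p under 0.05, 4 of the 43 were higher (9.30%), where 2.94% of all tested genes were. Those of lowest p were Zeb2, a zinc finger repressor also expressed in glia (0.20, SE 0.07), and Ebf1, a helix-loop-helix factor of differentiating neurons (0.21, SE 0.08; edgeR adjusted p = 0.792 for both). LIM homeobox factors such as Lhx1, Lmx1b and Isl1 act through Ldb cofactors, and homeobox factors more widely through Pbx and Meis partners. Of 16 such cofactors 8 were higher and 8 lower with a median of 0.00, and Lmo1 (-0.35, SE 0.15), which competes for Ldb1, and Meis3 (-0.23, SE 0.10) had the lowest p, followed by Ssbp2 (0.16, SE 0.08).

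The transmitter genes that these factors keep up showed no common direction. Of 11 listed, 10 were tested, 6 higher and 4 lower with a median of 0.01. Those of lowest p were the vesicular inhibitory transporter Slc32a1, lower in value at -0.19 (SE 0.06), the GABA-synthesising enzyme Gad2, higher in value at 0.18 (SE 0.07; edgeR adjusted p = 0.792 for both), and the vesicular glutamate transporter Slc17a8 at 0.40 (SE 0.33). The first 2 belong to the same inhibitory neurons that Pax2 marks, and their values differed in sign.

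**Figure D5:**
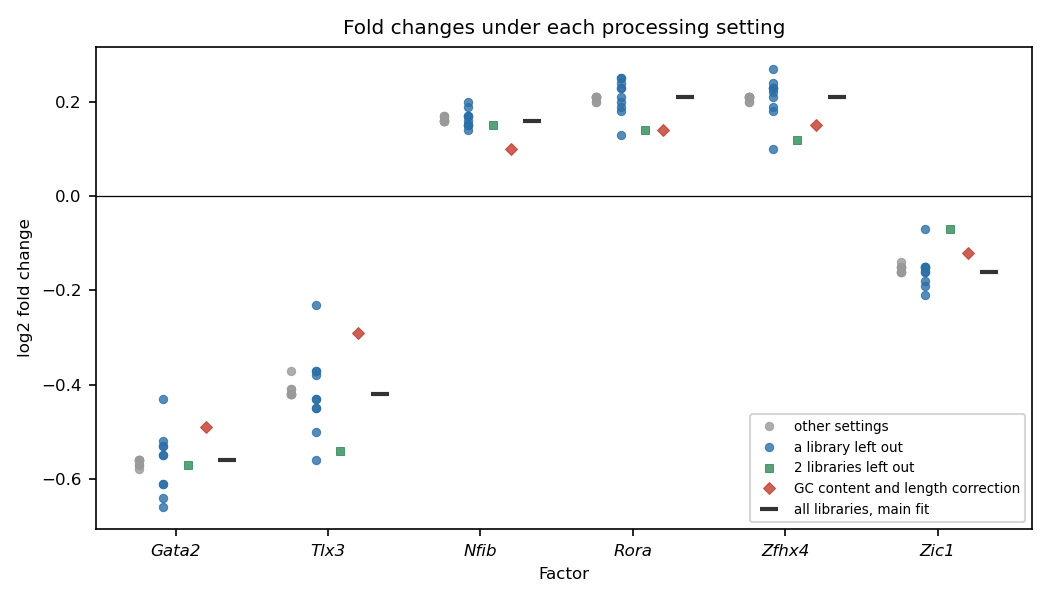
Log2 fold change of 6 factors, paclitaxel over vehicle, in the main fit (black bars), with each library left out (blue), with paclitaxel replicate 3 and vehicle replicate 4 both left out (green), after the composition correction (red) and under the other settings (grey). Each of these factors kept its sign. The value nearest 0 was -0.43 for Gata2, -0.23 for Tlx3, 0.10 for Nfib, 0.13 for Rora, 0.10 for Zfhx4 and -0.07 for Zic1.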

How the data were processed

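Lumbar cord mRNA libraries were sequenced on an Illumina instrument, per the labels' protocols. The authors deposited expected counts, 1 value per gene and library, without depth scaling. The tools named are STAR, RSEM and edgeR 4.2.0 and the build is mm10, per the submitters' processing notes; tool versions of STAR and RSEM, annotation release, read filters and strand setting were not given in the sources used here. Fractional values (5.04% of the table) were rounded to whole counts.

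Counts were filtered with filterByExpr (minimum 10 counts, minimum total 15), scaled with TMM factors on the total over genes kept, and tested with edgeR 4.0.16 (R 4.3.3) by the quasi-likelihood test, robust, without covariates, two-sided. Benjamini-Hochberg adjustment ran over 13287 genes, with a threshold of 0.05. Log2 CPM adds a prior count of 2, and intervals are at 95%. Exact permutation tests ran over 252 assignments. The fit was tested on simulated counts. Lengths and GC content came from GENCODE M21 transcripts (99.7% of tested genes), coordinates and upstream sequences from RefSeq on GRCm38, the assembly mm10 names.

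Members, gene lists and classes were chosen with earlier results of these data known. Values in every library are given for the 3 tested members of lowest p and the 2 of highest mean CPM in each class, and of the related lists up to 3 genes of lowest p are named; 1 such gene is not reported here. Alternatives were other scalings (DESeq2 size factors, upper quartile, library totals), other filters, DESeq2 1.42.0, limma-voom 3.58.1, the likelihood ratio test, the replicate number as a block, a loess fit of composition (GC content and length), and leaving out each library. A fit that dropped both paclitaxel replicate 3 and vehicle replicate 4 was added after the data were seen.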

Additional observations from a re-analysis of the deposited data

Results flagged for a closer look

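In 74 groups of 5 values (32 tested factors and 5 class scores, each in 2 treatments), 1 library was compared with the rest of its group by the gap to its nearest neighbour over the whole range, and chance gives about 1 in 20, or 3.70 groups. This picked out 5. Gbx1 was at 5.14 CPM in paclitaxel replicate 5, where the next highest paclitaxel library was at 2.97 CPM. Zic1 was at 36.6 CPM in paclitaxel replicate 2, above 34.7 CPM, in a group that was otherwise very close together. Foxp2 was at 3.91 CPM in vehicle replicate 4, below 6.81 CPM. Gata2 was at 4.36 CPM in vehicle replicate 5, below 5.76 CPM. Its groups overlapped only between this library and paclitaxel replicate 1, at 4.69 CPM. Zfhx4 was at 62.6 CPM in paclitaxel replicate 3, above 47.3 CPM.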

How the results depend on the processing

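Of 20 named factors under 21 other settings (420 values), 412 kept their direction and stayed short of the threshold, and 8 changed sign, all of genes close to 0. These were Nkx2-2 (0.02 after the composition correction for GC content and length, 0.17 without both paclitaxel replicate 3 and vehicle replicate 4, and -0.13 to 0.14 with each library left out), Prrxl1 (0.05 without both libraries, -0.15 to 0.05 with each left out) and Bhlhe22 (-0.05 to 0.02). Factors at an unadjusted p under 0.05 numbered 4, and 2 after the composition correction, with 3 to 5 as each library was left out. Genes called numbered 1 with DESeq2, 1 with the likelihood ratio test and 1 with the replicate number as a block (Klf4, Klf4 and Fos, named after their values were seen), and 0 otherwise, with 0 factors throughout. Among settings that kept the libraries or dropped both, medians moved beyond the spread of the vehicle scores for dorsal excitatory factors without a filter (-0.29, with Lhx2 and Lhx9 added) and for birth-time factors without both libraries (0.02). With each library left out, medians ran from -0.19 (without paclitaxel replicate 3) to -0.07 (vehicle replicate 4) for dorsal excitatory, -0.07 (paclitaxel replicate 5) to 0.05 (paclitaxel replicate 2) for dorsal inhibitory, -0.13 (paclitaxel replicate 4) to 0.02 (vehicle replicate 3) for ventral, 0.01 (paclitaxel replicate 3) to 0.12 (paclitaxel replicate 1) for birth-time factors and -0.04 (paclitaxel replicate 5) to 0.08 (paclitaxel replicate 2) for dorsal factors of both types; beyond the added genes, the cause was not tested. The replicate numbers were not shown to pair the libraries: deviations of same-numbered libraries correlated at -0.103 to 0.143, and 2 of 5 paclitaxel libraries correlated best with their own number. Depth limits the 11 factors below the filter, which had no edgeR test.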

Other observations

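Paclitaxel replicate 3 was the highest of all 10 libraries for 7 of the 32 tested factors, among them Rora, Zfhx4, Zfhx3, Satb1, Foxp1 and Foxp2, and the lowest for 1, Nkx2-2. Over all tested genes it was the highest library for 19.7% and the lowest for 20.0%. Paclitaxel replicate 4, the library with the fewest counts, was the highest for 6 factors and the lowest for 7, where over all tested genes it was the highest for 9.12% and the lowest for 9.59%. Paclitaxel libraries had the larger standard deviation for 20 of the 32 factors (62.5%), close to the 60.0% of all tested genes.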
